A study of Saccharomyces kudriavzevii and Saccharomyces cerevisiae and Kluyveromyces marxianus with 12 samples.

Results

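The 30 genes described here make, control and store the sterol of the yeast membrane. They were chosen by identifier for their place in the mevalonate and ergosterol pathway, and all 30 were found among the 6017 genes of the *S. cerevisiae* count tables. They comprised 9 genes of the mevalonate steps, 3 from squalene to lanosterol, 10 from lanosterol to ergosterol, 4 encoding electron donors and accessory proteins, 2 encoding transcription factors and 2 encoding sterol acyltransferases. Poly(A) RNA was sequenced from strain BY4742, a haploid MATalpha laboratory strain of S288C descent with deletions in his3, leu2, lys2 and ura3, which control and heat-shocked cells share. Cells in exponential growth in rich glucose medium (YPD) were held for 8 minutes either at the growth temperature of 33 °C (control, 2 biological replicates) or at 40 °C (heat shock, 2 biological replicates), and no gene of the pathway was altered. Laboratory strains of S288C descent carry a Ty1 insertion in HAP1, a sterol- and heme-responsive regulator of the pathway, which limits them as a model of its control.

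Ergosterol is the main sterol of fungal membranes, where it sets fluidity and permeability, and its synthesis begins from acetyl-CoA. The mevalonate steps build isoprenoid diphosphates, which also serve dolichol, ubiquinone, heme A and protein prenylation. Squalene is then epoxidised and closed into lanosterol, and a series of demethylation, reduction, isomerisation and desaturation steps in the endoplasmic reticulum turns lanosterol into ergosterol at a high cost in oxygen and NADPH. Surplus sterol is esterified with fatty acids and stored in lipid droplets. Upc2 and Ecm22, a pair of zinc cluster transcription factors, sense sterol and bind the sterol regulatory element upstream of many of these genes. Rapid heating is known in yeast for the induction of chaperone genes by Hsf1 and of general stress genes by Msn2 and Msn4, which bind the heat shock element and the stress response element.

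Upstream stretches of 6 members show how these elements are laid out. The stretches come from the R64 genome, are written 5′ to 3′ on the strand of the gene and end at least 90 bases before its start codon. They are shown for the gene that fell most (ERG13), the gene that rose most (ARE2) and both transcription factor genes, and for ERG3 and ERG28, which were added after their values were seen because ERG3 held the most sterol elements and ERG28 rose with one. The capitals mark a match to the sterol regulatory element as TCGTATA or TCGTTTA on either strand (TATACGA or TAAACGA when read on the other), to AGGGG, the core of the stress response element, or to GAANNTTC, a part of the heat shock element. The stretches lie at chrXIII:20625-20765 (ERG13, minus strand, whose first bases run into the end of the PGA3 coding sequence), chrXII:253431-253591 (ERG3, plus strand), chrV:238241-238306 (ERG28, minus strand), chrXIV:665179-665248 (ARE2, plus strand), chrIV:889381-889411 (UPC2, plus strand) and chrXII:602803-602843 (ECM22, minus strand).
ERG13: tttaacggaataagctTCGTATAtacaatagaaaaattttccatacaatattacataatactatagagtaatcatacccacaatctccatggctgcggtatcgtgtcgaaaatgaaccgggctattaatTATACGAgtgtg
ERG3: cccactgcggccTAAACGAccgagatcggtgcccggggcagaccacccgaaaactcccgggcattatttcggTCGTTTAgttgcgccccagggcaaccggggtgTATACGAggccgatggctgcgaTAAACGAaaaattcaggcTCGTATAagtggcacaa
ERG28: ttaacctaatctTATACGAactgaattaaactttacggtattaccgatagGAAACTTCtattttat
ARE2: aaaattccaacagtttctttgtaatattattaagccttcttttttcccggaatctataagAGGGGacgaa
UPC2: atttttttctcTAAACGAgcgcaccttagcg
ECM22: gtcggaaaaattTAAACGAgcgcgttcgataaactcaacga
ERG13 shows a pair of sterol elements in opposite orientation, ERG3 shows 5 in both forms and both orientations, and UPC2 and ECM22 each carry TAAACGA followed by gcgc. ARE2 shows a stress response element and no sterol element, and ERG28 shows a sterol element upstream of a heat shock element part.

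The libraries held between 18911098 and 23476002 reads counted on genes, and the members had between 631 and 17643 counts in a library. SSA4, an Hsp70 gene induced by heat, had 75.6 and 65.4 CPM (counts scaled to a common library size, with TMM factors) in the control libraries and 8374 and 10270 CPM at 40 °C, so the treatment labels held. No read was counted on LEU2, LYS2 or URA3 in any of the 4 libraries, and HIS3, of which the strain lacks only a part, was counted. Transcripts of 4 alpha-cell genes summed to 2723 and 2667 CPM in the control libraries and to 198 and 166 CPM after heat shock. The 5 a-cell genes summed to 21.7 and 18.2 CPM in the control libraries and to 39.7 and 35.6 CPM after heat shock. All values are shares of the RNA in a library, and fewer cells with a transcript and less of it per cell cannot be told apart in such bulk cultures.

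Most genes of the pathway fell within 8 minutes at 40 °C, while the gene for the main sterol acyltransferase rose. Of the 30 members, all of which passed the filter on low counts, 17 were lower and 3 were higher after heat shock at an adjusted p under 0.05 (edgeR quasi-likelihood test, Benjamini-Hochberg adjustment over 5786 genes). Among all genes tested, 32.7% were lower and 33.7% were higher. Thus 56.7% of the members fell, a larger share than among all genes, and 3 rose, a smaller one. Changes of at least 2-fold were found for 5 members that fell and 1 that rose, where 13.5% of all genes fell and 11.7% rose by as much. The median log2 fold change of the members was -0.49 ± 0.06 (SD of the medians from the 4 ways to set 1 heat-shocked culture against 1 control, which reuse cultures), with a range from -1.27 to 1.59, and that of all genes was 0.03. On the TPM scale, which divides by gene length and by the sum over all genes, the median of all genes moved to 0.26 and that of the members to -0.24. The distance between both medians was thus similar, but ERG4, ERG12, ERG26 and HMG2, none of them called, turned positive on that scale. The 2-fold counts also depend on the scale. Of the members that fell at least 2-fold, only ERG13 (-1.01) did so in TPM, where ERG28 (1.04) joined ARE2 (1.80) in rising as much. Changes are given below on the TMM scale.

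**Figure D1:**
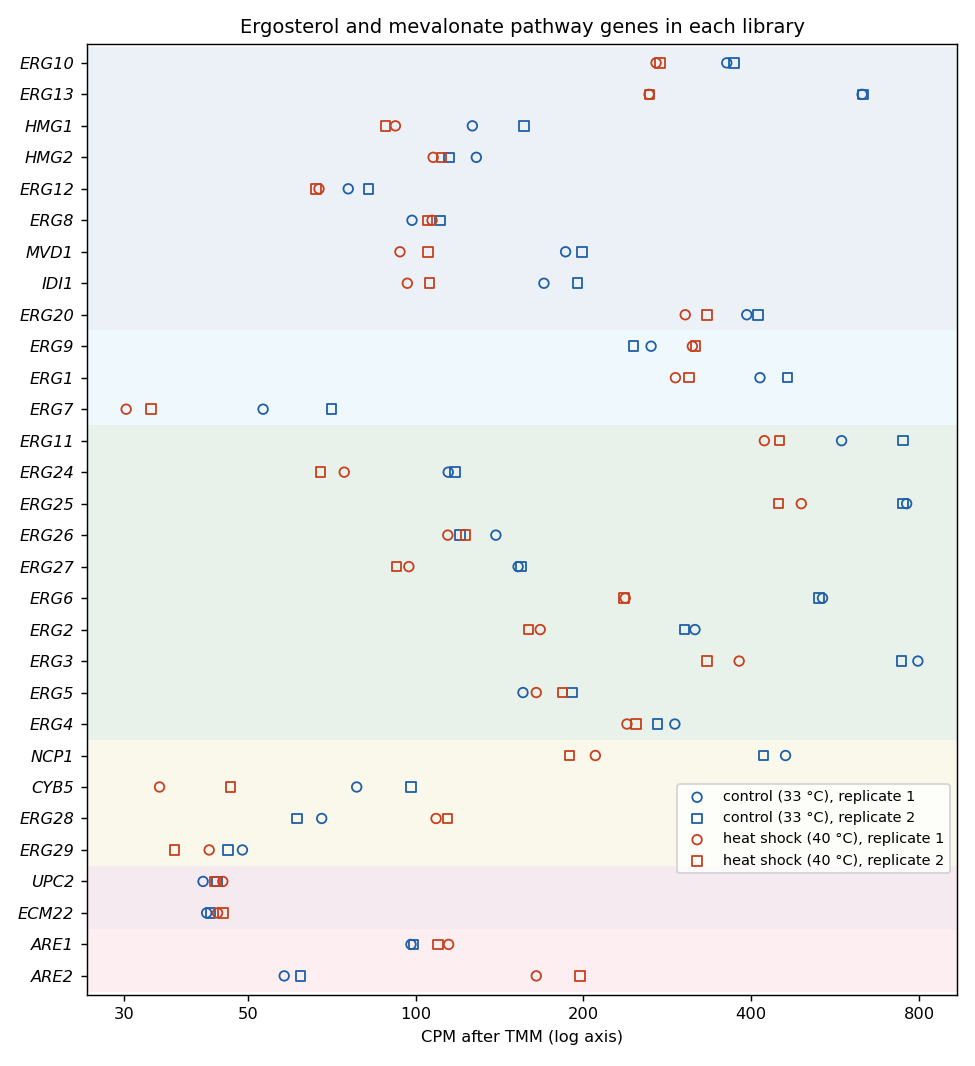
CPM after TMM scaling (log axis) of each of the 30 genes in each library, in pathway order from top to bottom and shaded by role, with control libraries in blue, heat shock libraries in red, and replicates 1 and 2 as circles and squares. Control values lie to the right of heat shock values for genes such as ERG13 and ERG6, to the left for ARE2, ERG28 and ERG9, and among them for ERG5, ERG8 and UPC2.

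The mevalonate steps showed 6 genes lower (66.7%), none higher and 3 that did not pass the test, with a median log2 fold change of -0.43. Of all genes tested, 32.7% were lower and 33.7% were higher. ERG13 (YML126C, chrXIII:19060-20535), which encodes HMG-CoA synthase and whose upstream sterol element pair is printed above, fell most of all members. It had 633 and 635 CPM in the control libraries and 262 and 263 CPM at 40 °C. The replicates of each condition were nearly equal and heat shock left 41.4% of the control level, a log2 fold change of -1.27 ± 0.09 (SE, adjusted p = 3.13e-05). ERG10 (YPL028W), encoding the acetoacetyl-CoA thiolase just before it, fell by 0.43 on the log2 scale (adjusted p = 0.00396), a smaller change at the first step.

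HMG-CoA reductase, the main control point of the pathway, is made from a pair of paralogs. HMG1 (YML075C, chrXIII:115734-118898), the main isozyme in aerobic cells, had 126 and 156 CPM in the control libraries and 92.0 and 88.3 CPM after heat shock, with a log2 fold change of -0.65 ± 0.12 (SE, adjusted p = 0.00242). HMG2 (YLR450W, chrXII:1032627-1035764), whose protein is degraded when the pathway is full, had 129 and 115 CPM in the control libraries and 108 and 111 CPM after heat shock, and its log2 fold change of -0.15 ± 0.09 (SE, adjusted p = 0.17) did not pass the test. Per length, the ratio of HMG1 to HMG2 in TPM was 0.976 and 1.35 in control cells, against 0.849 and 0.787 after heat shock. The ratio was thus lower after heat shock in each library than in either control, but the control replicates differed from each other by more than the lower of them did from heat shock, and the difference between the paralogs was not tested.

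Further down the mevalonate steps, MVD1 (YNR043W), which encodes mevalonate diphosphate decarboxylase, had 186 and 199 CPM in the control libraries and 93.7 and 105 CPM after heat shock. IDI1 (YPL117C), encoding the isopentenyl diphosphate isomerase, had 170 and 195 CPM and then 96.6 and 106 CPM. Both fell to nearly the same degree, with log2 fold changes of -0.95 ± 0.10 (SE, adjusted p = 0.00016) and -0.85 ± 0.10 (SE, adjusted p = 0.000389). ERG20 (YJL167W), encoding farnesyl diphosphate synthase at the branch point to other isoprenoids, had a smaller log2 fold change of -0.33 ± 0.09 (SE, adjusted p = 0.0186), which lost the call without either heat shock library (adjusted p = 0.155 without replicate 1 and 0.0549 without replicate 2). The kinase genes in the middle of this segment did not pass the test. ERG12 (YMR208W, mevalonate kinase) had a log2 fold change of -0.25 (adjusted p = 0.0743), and ERG8 (YMR220W, phosphomevalonate kinase) had one of 0.02 (adjusted p = 0.871) with overlapping conditions. Within 1 linear pathway segment, neighbouring steps therefore ranged from no detectable difference to a loss of more than 2-fold.

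**Figure D2:**
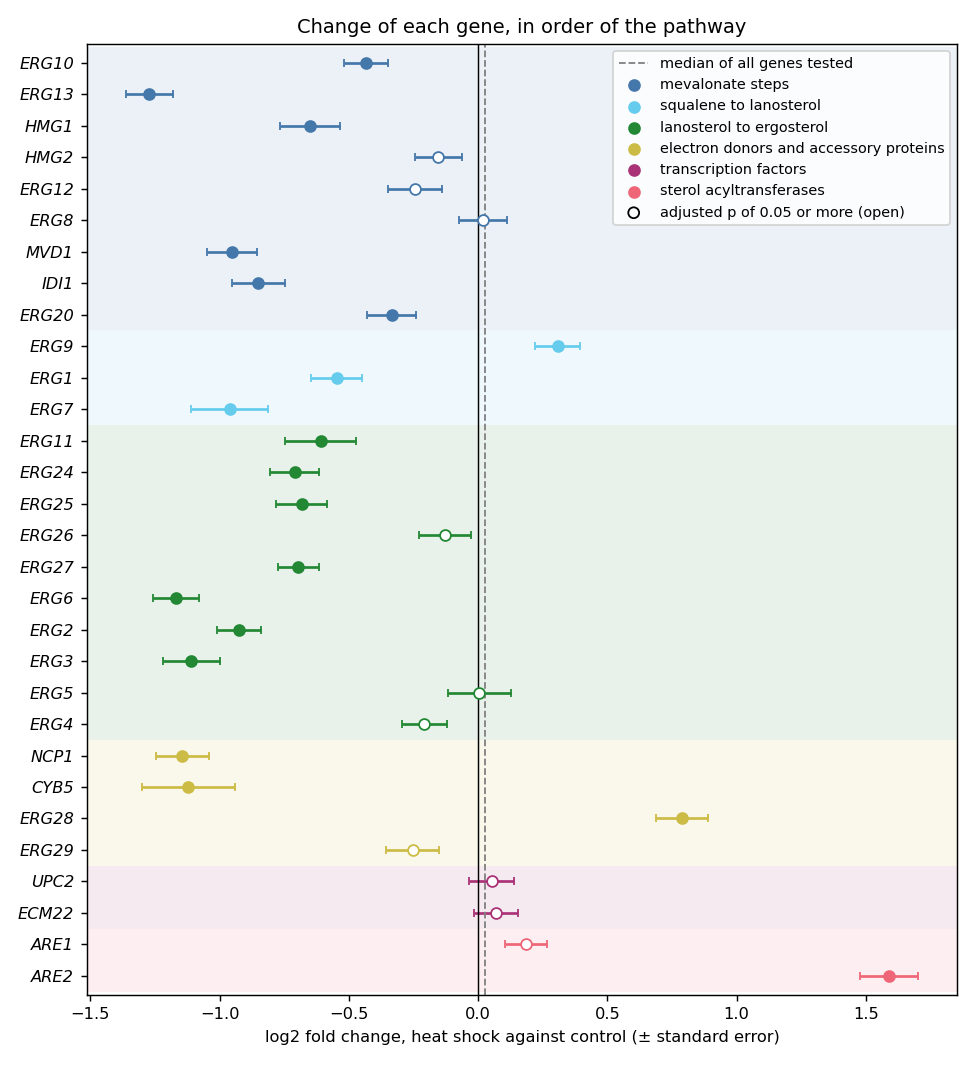
Log2 fold change of heat shock against control (points, ± SE from the edgeR fit) for each gene in pathway order, coloured by role, with open points for an adjusted p of 0.05 or more and a dashed line at the median of all genes tested (0.03). Filled points lie left of 0 for 17 genes and right of it for ERG9, ERG28 and ARE2.

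The 3 steps from farnesyl diphosphate to lanosterol did not move together. ERG9 (YHR190W), encoding squalene synthase, which commits farnesyl diphosphate to sterols, had 265 and 246 CPM in the control libraries and 314 and 318 CPM after heat shock. It was the only one of the 22 enzyme genes called higher (log2 fold change 0.31 ± 0.09, SE, adjusted p = 0.0194), and it lost this call without control replicate 2 (adjusted p = 0.0539), heat shock replicate 1 (adjusted p = 0.109) or heat shock replicate 2 (adjusted p = 0.173). ERG1 (YGR175C), encoding the oxygen-dependent squalene epoxidase, had 415 and 465 CPM and then 293 and 309 CPM, a log2 fold change of -0.55 ± 0.10 (SE, adjusted p = 0.00273). ERG7 (YHR072W), encoding lanosterol synthase, was the least abundant enzyme transcript per length (20.4 TPM in control cells). It had 53.2 and 70.7 CPM in the control libraries and 30.2 and 33.5 CPM after heat shock, which gave a log2 fold change of -0.96 ± 0.15 (SE, adjusted p = 0.00125). Summed over these 3 genes, 733 and 782 CPM in control cells stood against 636 and 661 CPM after heat shock, a ratio of 0.857, but the summed TPM had the opposite direction, with a ratio of 1.05.

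The steps from lanosterol to ergosterol held 7 genes that fell (70.0%), none that rose and 3 that did not pass the test, with a median log2 fold change of -0.69. The shares among all genes tested were 32.7% that fell and 33.7% that rose. ERG6 (YML008C, chrXIII:251839-252990), encoding the sterol methyltransferase that gives ergosterol its side-chain methyl group, fell most. It had 537 and 530 CPM in the control libraries and 238 and 237 CPM after heat shock, which gave a log2 fold change of -1.17 ± 0.09 (SE, adjusted p = 4.18e-05). ERG3 (YLR056W, chrXII:253861-254958), encoding the sterol C-5 desaturase and preceded by the 5 sterol elements printed above, had 796 and 745 CPM and then 381 and 333 CPM. Its log2 fold change was -1.11 ± 0.11 (SE, adjusted p = 0.000142), so that ERG6 kept 44.5% and ERG3 46.3% of the control level. ERG2 (YMR202W, chrXIII:667537-668205), encoding the sterol isomerase that works between them, had 317 and 304 CPM in control cells and 167 and 159 CPM after heat shock (log2 fold change -0.93 ± 0.09, SE, adjusted p = 0.000107).

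The genes of the enzymes that strip methyl groups from lanosterol, and of the reductase that works among them, had log2 fold changes between -0.71 and -0.13. ERG11 (YHR007C, chrVIII:120091-121683) encodes the cytochrome P450 demethylase that azole antifungals inhibit, and had 581 and 748 CPM in the control libraries and 422 and 450 CPM after heat shock. Its control replicates differed more than those of most members, and its log2 fold change of -0.61 ± 0.14 (SE, adjusted p = 0.00706) lost the call without heat shock replicate 1 (adjusted p = 0.055). ERG25 (YGR060W, chrVII:610564-611493), encoding the C-4 methyl oxidase, was the most abundant member per length in both conditions, with 760 and 749 CPM in the control libraries and 492 and 448 CPM after heat shock. It fell by 0.68 on the log2 scale (SE 0.099, adjusted p = 0.000901). ERG24 (YNL280C, the reductase that follows Erg11) and ERG27 (YLR100W, the keto-reductase that works with Erg25) changed by a similar amount, with log2 fold changes of -0.71 and -0.70. ERG26 (YGL001C), encoding the dehydrogenase of the same demethylation complex, had a log2 fold change of -0.13 (adjusted p = 0.296) and overlapping conditions.

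The genes of the last steps, ERG5 and ERG4, did not pass the test. ERG5 (YMR015C), encoding the C-22 desaturase, the other cytochrome P450 of the pathway, had 156 and 191 CPM in the control libraries and 165 and 184 CPM after heat shock. Replicate 2 was the higher one in both conditions and the conditions overlapped (log2 fold change 0.00 ± 0.12, SE, adjusted p = 0.975). ERG4 (YGL012W), encoding the reductase that makes ergosterol, had 292 and 272 CPM and then 239 and 248 CPM, and its log2 fold change of -0.21 ± 0.09 (SE, adjusted p = 0.0752) was not past the threshold either.

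Both electron donor genes fell by more than 2-fold on the TMM scale, and by less on the TPM scale (log2 ratio -0.88 for NCP1 and -0.87 for CYB5). NCP1 (YHR042W, chrVIII:190543-192618), encoding the NADPH-cytochrome P450 reductase that serves Erg11, Erg5 and Erg1, had 461 and 421 CPM in the control libraries and 210 and 189 CPM after heat shock, which gave a log2 fold change of -1.14 ± 0.10 (SE, adjusted p = 9.05e-05). CYB5 (YNL111C, chrXIV:416940-417302), encoding cytochrome b5, a donor for Erg3 and Erg25, had 78.4 and 98.2 CPM and then 34.7 and 46.6 CPM. Replicate 2 was higher in both conditions, and the log2 fold change was -1.12 ± 0.18 (SE, adjusted p = 0.00149). The pathway has 7 genes that encode oxygen-using enzymes or their electron donors (ERG1, ERG11, ERG25, ERG3, ERG5, NCP1 and CYB5, grouped after their values were seen). Of these, 6 fell and ERG5 did not pass the test, with a median log2 fold change of -0.68. Of all 22 enzyme genes, 15 fell (68.2%), with a median of -0.63, and of all genes tested 32.7% fell. A difference between this group and the rest of the pathway was not tested.

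ERG28 (YER044C, chrV:237570-238016) moved against most of its partners. It encodes a membrane protein of the endoplasmic reticulum that tethers the C-4 demethylation enzymes Erg25, Erg26 and Erg27 to each other, and had 67.8 and 61.2 CPM in the control libraries and 109 and 114 CPM after heat shock. Its log2 fold change was 0.79 ± 0.10 (SE, adjusted p = 0.000472), while ERG25 and ERG27 fell. ERG29 (YMR134W), encoding a protein of the same membrane that assists Erg25, had a log2 fold change of -0.25 (adjusted p = 0.0663).

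Transcripts of the sterol-sensing transcription factors were scarce and did not differ detectably. UPC2 (YDR213W, chrIV:889751-892492) had 41.6 and 44.0 CPM in the control libraries and 45.1 and 43.6 CPM after heat shock, with overlapping conditions (log2 fold change 0.05 ± 0.09, SE, adjusted p = 0.616). ECM22 (YLR228C, chrXII:600019-602463) had 42.2 and 42.9 CPM and then 44.1 and 45.1 CPM (log2 fold change 0.07 ± 0.08, SE, adjusted p = 0.497). Per length they were the 2 least abundant members in control cells, at 11.2 ± 0.863 and 12.5 ± 0.606 TPM (SD, n = 2), and the ratio of UPC2 to ECM22 in TPM stayed between 0.863 and 0.915 in the 4 libraries.

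The sterol acyltransferases, which esterify sterol for storage, included the gene with the largest rise among the members. ARE2 (YNR019W, chrXIV:665339-667267), encoding the isozyme that makes most of the ergosteryl ester of aerobic cells, had 58.1 and 62.2 CPM in the control libraries and 165 and 197 CPM after heat shock. It rose to 301% of the control level, a log2 fold change of 1.59 ± 0.11 (SE, adjusted p = 3.13e-05). ARE1 (YCR048W, chrIII:211929-213761), encoding the isozyme that prefers sterol precursors such as lanosterol, had 98.1 and 99.2 CPM and then 115 and 110 CPM, and its log2 fold change of 0.19 ± 0.08 (SE, adjusted p = 0.0813) did not pass the test. The last 298 bases of ARE1 overlap YCR050C on the other strand, and reads there could not be assigned by strand. The level of ARE1 may therefore be understated, and a ratio of ARE2 to ARE1 overstated, in every library. The ratio of ARE2 to ARE1 in TPM was 0.563 and 0.596 in control cells, against 1.37 and 1.71 after heat shock. ARE2 thus went from the less to the more abundant transcript of the pair in both heat shock libraries, and this change of the ratio was given no test of its own.

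The pathway as a whole took a smaller share of the transcriptome after heat shock. The 22 enzyme genes together took 0.659% and 0.701% of all counted reads in control cells, against 0.454% and 0.443% after heat shock. Their summed CPM went from 6870 ± 169 to 4441 ± 19.9 (SD, n = 2), a ratio of 0.646, and the conditions did not overlap. The summed TPM went from 4139 ± 216 to 3127 ± 32.9 (SD, n = 2), a ratio of 0.756. With 2 libraries in each condition, an exact permutation test of such a sum cannot go below 0.333. The steps from lanosterol to ergosterol, which supplied the largest part, had a ratio of 0.609 in summed CPM, the mevalonate steps had 0.641, and the 2 acyltransferases had 1.85.

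Most members were abundant transcripts, and most of those that fell were among the more abundant. Their median level was 111 TPM in control cells, against 29.8 TPM for the 5748 tested genes with a TPM value, and 25 of the 30 lay above that median gene. Per length, ERG25 led with 585 ± 15.1 TPM (SD, n = 2), followed by ERG3 with 505 ± 5.63 TPM, ERG2 with 334 ± 2.11 TPM, ERG6 with 333 ± 8.80 TPM and ERG13 with 309 ± 12.1 TPM. ERG2, ERG6, ERG13 and ERG11 (302 ± 64.4 TPM) differed from each other by less than the spread of ERG11. After heat shock ERG25 (434 ± 32.9 TPM) and ERG3 (279 ± 28.9 TPM) kept their ranks. ERG6 dropped from rank 4 to rank 9 and ERG13 from rank 5 to rank 11, whereas ERG28 climbed from rank 17 to rank 5 and ERG9 from rank 14 to rank 7.

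Among the 15 members with the highest control TPM, 13 fell, with a median log2 fold change of -0.85. Among the other 15, 4 fell, with a median of -0.13, where 32.7% of all genes tested fell. As a description over the 30 genes, log2 control TPM and log2 fold change had a Pearson correlation of -0.52 and a Spearman correlation of -0.58. The same libraries enter both axes, and over all 5748 genes the Spearman correlation was -0.35, so the sign is shared with genes in general. ERG7 and HMG1 stood apart as low transcripts that fell, and ERG9 as one above the median member that rose.

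**Figure D3:**
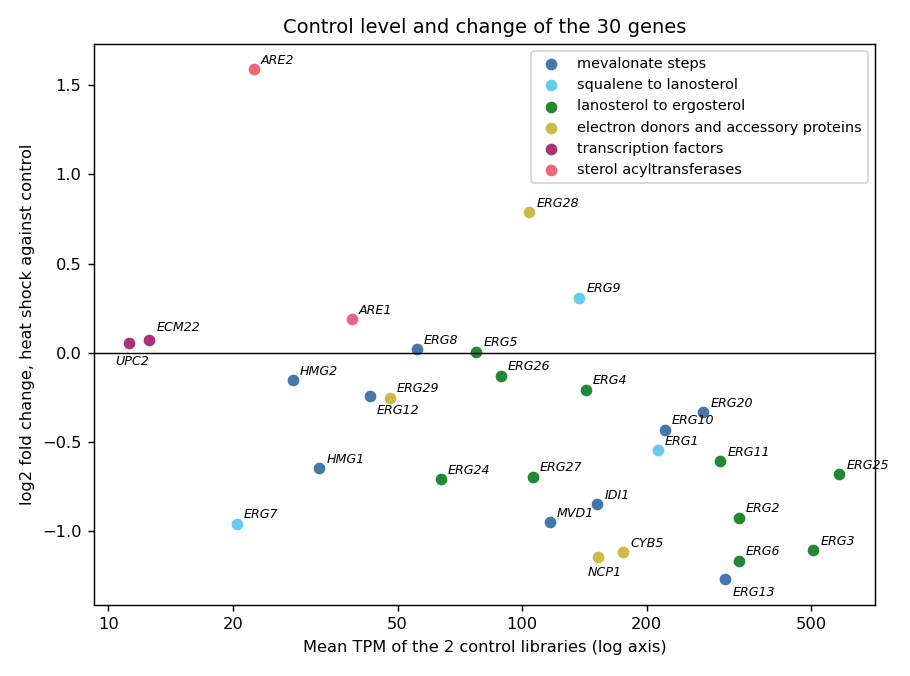
Log2 fold change of heat shock against control plotted against the mean TPM of the 2 control libraries (log axis) for each of the 30 genes, coloured by role. UPC2 and ECM22 lie near 0 at the left and ERG3 at -1.11 at the right, while ARE2 at 1.59 and ERG28 at 0.79 lie above the others.

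Genes that regulate the pathway and its quality control in the endoplasmic reticulum moved in both directions, as genes in general did. Of 11, 5 rose (45.5%) and 4 fell (36.4%), where 33.7% and 32.7% of all genes did, and their median log2 fold change was -0.14. NSG1 (YHR133C) and NSG2 (YNL156C), a pair of paralogs related to the mammalian Insig proteins and known to stabilise Hmg2, moved oppositely. NSG1 had 152 and 155 CPM in the control libraries and 82.2 and 87.0 CPM after heat shock (log2 fold change -0.86 ± 0.08, SE, adjusted p = 0.000115). NSG2 had 50.03 and 50.73 CPM and then 111 and 134 CPM (log2 fold change 1.28 ± 0.12, SE, adjusted p = 0.000104). Their ratio in TPM fell from 3.12 and 3.14 to 0.760 and 0.668, so that NSG2 became the more abundant of both. DAP1 (YPL170W), a heme protein that assists Erg11, had 41.2 and 40.1 CPM and then 78.9 and 89.0 CPM (log2 fold change 1.05 ± 0.12, SE, adjusted p = 0.000249). HRD1 and HRD3, which encode the ubiquitin ligase complex that degrades Hmg2, rose by 0.70 and 0.40 on the log2 scale, and SUT1, a regulator of sterol uptake, fell by 0.86.

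Among genes of sterol uptake, transport and ester turnover, 12 of 24 rose and 7 fell (29.2%), where 33.7% of all genes rose and 32.7% fell, and the median log2 fold change was 0.26. NCR1 (YPL006W), the yeast relative of the Niemann-Pick C1 protein in the vacuolar membrane, had 61.4 and 53.9 CPM in the control libraries and 120 and 125 CPM after heat shock (log2 fold change 1.09 ± 0.10, SE, adjusted p = 0.000119), and NPC2, encoding its partner in the vacuole lumen, rose by 0.64. LAM4 (YHR080C), which encodes a sterol transfer protein at contacts between the endoplasmic reticulum and the plasma membrane, had 32.0 and 37.9 CPM and then 69.6 and 74.1 CPM (log2 fold change 1.04 ± 0.12, SE, adjusted p = 0.000333). Of its relatives, LAM1, LAM5 and LAM6 rose too, whereas YSP2 fell by 0.50.

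ATF2, PRY1 and HES1 were the genes of this list that fell by at least 2-fold. ATF2 (YGR177C), encoding the acetyltransferase that acts on sterols, had 66.1 and 72.2 CPM in the control libraries and 18.6 and 18.5 CPM after heat shock (log2 fold change -1.90 ± 0.10, SE, adjusted p = 7.68e-06). PRY1 (YJL079C), encoding a secreted protein that binds acetylated sterols, had 648 and 361 CPM and then 217 and 160 CPM (log2 fold change -1.42 ± 0.28, SE, adjusted p = 0.0038). HES1 (YOR237W), encoding an oxysterol-binding protein relative, had 16.4 and 8.66 CPM and then 5.73 and 3.08 CPM (log2 fold change -1.48 ± 0.39, SE, adjusted p = 0.0129). Replicate 1 was the higher one in both conditions for PRY1 and HES1, and their errors were wide. Of the relatives of HES1, OSH2, SWH1 and OSH6 rose, by 1.00, 0.40 and 0.28 on the log2 scale, and KES1 fell by 0.51. SAY1, which encodes the deacetylase that opposes Atf2, rose by 0.47. Sterol ester hydrolases split, with TGL1 higher by 0.68 and YEH1 and YEH2 lower by 0.41 and 0.46.

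Other users of isoprenoid diphosphates showed 4 of 12 genes higher (33.3%, the share among all genes being 33.7%) and 2 lower, with a median log2 fold change of 0.01, near the 0.03 of all genes. COQ1 (ubiquinone side chain), BET4 (protein geranylgeranylation), and SRT1 and NUS1 (dolichol synthesis) rose, and RER2 (dolichol synthesis) and CDC43 (protein geranylgeranylation) fell, by 0.48 and 0.60 on the log2 scale. Over the 3 lists together, 21 of 47 genes rose and 13 fell, where 33.7% of all genes tested rose and 32.7% fell, and no difference of these lists from all genes or from the members was tested.

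**Figure D4:**
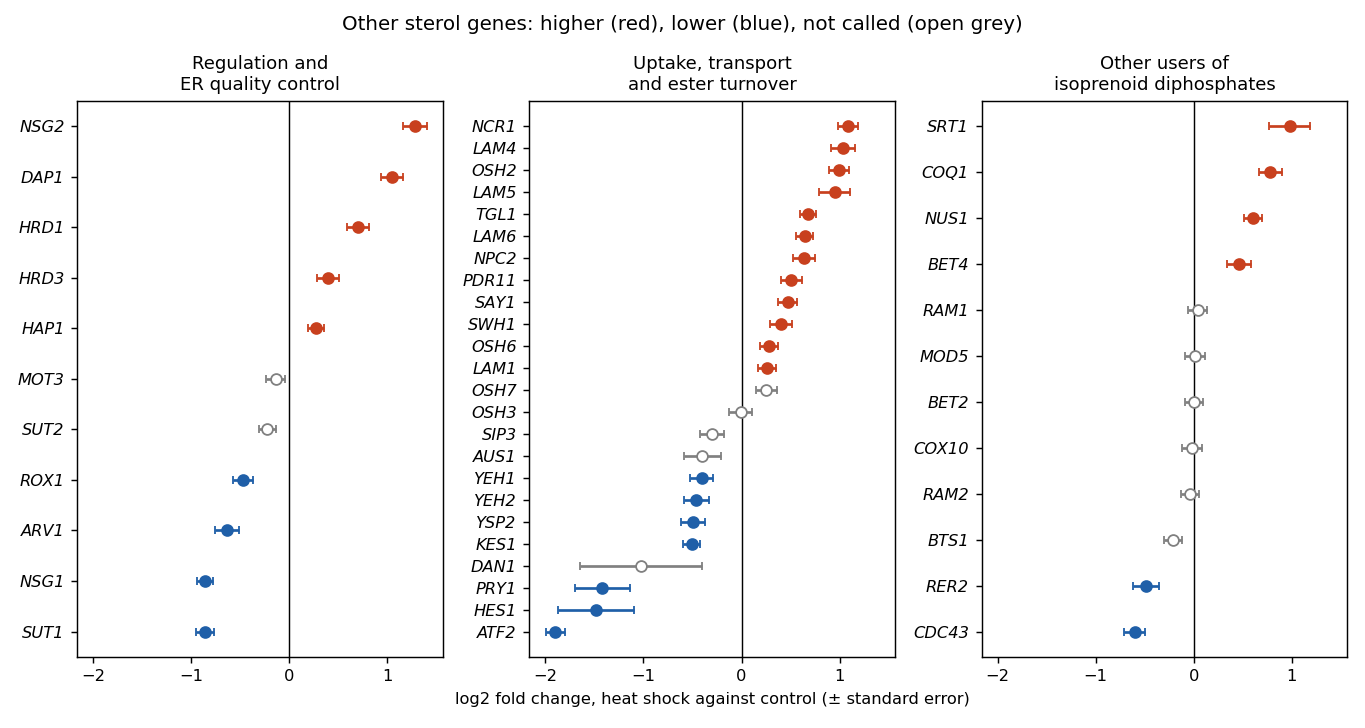
Log2 fold change of heat shock against control (points, ± SE from the edgeR fit) for the genes of the 3 further lists, sorted within each list, with higher genes in red, lower genes in blue and genes with an adjusted p of 0.05 or more as open grey points. NSG2 (1.28) and NCR1 (1.09) lead the first and second list and ATF2 (-1.90) ends the second.

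Most members carried the sterol regulatory element upstream. In the 500 bases before the start codon, on either strand, TCGTATA occurred in 9 of the 30 members (30%) and in 7.0% of 5993 genes searched, and TCGTTTA in 19 members (63.3%) and in 8.8% of all. Either form occurred in 25 members (83.3%) and in 14.8% of all. ERG3 had 5 matches and ERG25 had 3, and ERG11, ERG12, HMG2, IDI1 and ARE2 had none in this window. AGGGG occurred in 10 members (33.3%) and in 34.1% of all genes, and GAANNTTC in 4 members (ERG13, MVD1, CYB5 and ERG28, 13.3%) and in 19.2% of all. None of these shares was tested against that of all genes. No matches in the members overlapped each other, and 13 of the windows run into the coding sequence of a neighbouring gene, as that of ERG1 does into ATF2.

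Outside the pathway, genes with and without a match to the sterol element fell in similar shares, which were not tested against each other. The 830 other tested genes with either form had a median log2 fold change of 0.03 and 31.2% of them fell, and the 4924 others without it had a median of 0.03 and 32.9% fell. Among the members, the 25 with the element had a median of -0.55 and the 5 without it had a median of -0.25, with IDI1 and ERG11 falling and ARE2 rising in the latter group. The 10 members with AGGGG (ERG5, ERG7, ERG8, ERG9, ERG27, ERG29, MVD1, ECM22, ARE1 and ARE2) had a median of 0.01 and 30% of them fell, whereas the 20 without it had a median of -0.63 and 70.0% fell. Over the other genes of the genome, 1984 with AGGGG had a median of 0.28 and 24.3% of them fell, and 3770 without it had a median of -0.07 and 37.0% fell. These are descriptions of letters in a window, and no binding was measured.

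**Figure D5:**
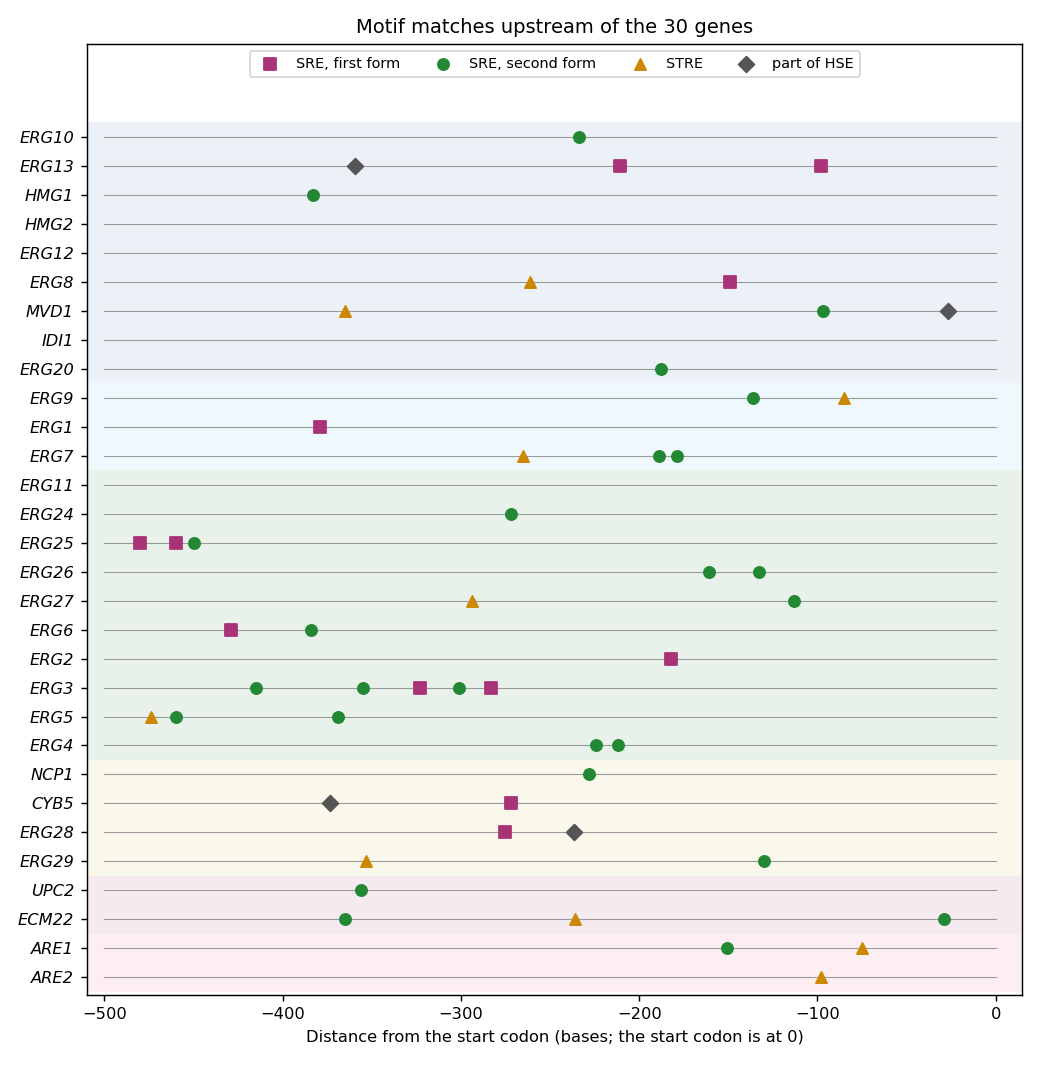
Position of each motif match in the 500 bases before the start codon (x axis, bases, with the start codon at 0) for the 30 genes in pathway order, with squares for TCGTATA, circles for TCGTTTA, triangles for AGGGG and diamonds for GAANNTTC. ERG3 carries 5 sterol elements, and ERG11, ERG12, HMG2 and IDI1 carry no match.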

How the data were processed

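Poly(A) RNA of 2 control and 2 heat-shocked cultures of *S. cerevisiae* was analysed, grouped by the temperature in the sample labels. Libraries of *S. kudriavzevii* and *K. marxianus* were not used. The authors trimmed reads with Trim Galore 0.6.10, aligned them to R64 with STAR 2.7.10b and counted them on coding sequences with HTSeq 2.0.2 without strand, and the deposited counts are whole reads per gene. Between 5.91% and 6.60% of reads were given to no gene and left out. The deposited TPM, calculated by the authors from these counts and gene lengths, are stacked with other libraries in a single column and were therefore read as a score. All 30 members had the same length in that table as in the annotation.

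Counts were tested in R 4.3.3 with edgeR 4.0.16 (TMM, filterByExpr, glmQLFit and glmQLFTest, no covariates), and DESeq2 1.42.0 was an alternative, besides other scalings, no filter, a replicate block and leaving out each library. SE is the log2 fold change divided by the square root of F. In simulated data of this comparison over 5773 genes, 94 of 100 changes of 2-fold and 98 of 100 of 4-fold were recovered, and 10 unchanged genes were called. Only those genes were changed there, as many up as down, whereas 3841 of 5786 genes were called in the data. The simulated rates therefore need not hold for the data. Replicates differed by more than sampling noise (chi-square per degree of freedom 44.9 in control and 24.6 in heat shock libraries). The p-values set each change against a spread estimated from 2 biological replicates per condition and moderated across genes. The members and gene lists were chosen with earlier results of these data known. All members are named, with values per library for those changed at least 2-fold, the 5 most abundant, HMG1, HMG2, the transcription factors and the acyltransferases; values for further members, and genes of the other lists outside an adjusted p under 0.05 and a 2-fold change, were added after they were seen. The planned RefSeq promoter table was not used here, and upstream windows of 500 bases were read from the R64 genome. Plots were made with matplotlib 3.10.9.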

Additional observations from a re-analysis of the deposited data

How the results depend on the processing

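Over the settings that kept all 4 libraries, between 17 and 19 members were lower and 3 were higher. Of the other sterol genes, between 13 and 17 were lower and between 18 and 22 higher. Among all genes tested in these settings, between 1775 and 2092 were lower and between 1733 and 2210 higher. Leaving out either heat shock library lowered the number of calls among the members, the other sterol genes and all genes. The median log2 fold change of the members ranged from -0.57 to -0.41 when a library was left out and was -0.24 as a log2 ratio of mean TPM with a pseudocount of 1, where the median of all genes was 0.26. Members without a call changed sign: ERG5 was -0.0218 with DESeq2 size factors and -0.0237 with DESeq2 and ranged from -0.16 to 0.16 when a library was left out, ERG8 was -0.0087 and -0.0106 and ranged from -0.0888 to 0.10, and UPC2 ranged from -0.0131 to 0.0939. The causes were not tested.

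Deviations of same-numbered replicates correlated at 0.57 over 5786 genes, but with 2 pairs and no label of a shared day the numbers were not taken as pairs. With a replicate block, 19 members were lower, 3 were higher and 4302 genes passed instead of 3841, and ERG12 (-0.24, adjusted p = 0.0264, edgeR) and ERG29 (-0.26, adjusted p = 0.0173) gained a call. ERG29 also passed with DESeq2 size factors (-0.28, adjusted p = 0.0415), ERG12 without control replicate 1 (adjusted p = 0.0147), and ERG4 and HMG2 without control replicate 2 (adjusted p = 0.0466 and 0.0413). Where a library was left out, the lone library of its condition was assumed to vary like those of the other. Every member had at least 631 counts in each library, and neither depth nor the number of replicates was varied beyond leaving out 1 library.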
